A study of Mus musculus with 15 samples.

Results

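The genes described here are those of the proteasome: core subunits, cap subunits, activators, the inhibitor Psmf1 and assembly chaperones. They were taken by symbol, as every row named Psma, Psmb, Psmc, Psmd, Psme, Psmf or Psmg with a number, which gave 49 of 42807 symbols in the count table. By role they were 8 alpha ring genes, 7 standard beta ring genes, 3 immunoproteasome genes, 1 thymoproteasome gene, 6 cap ATPases, 11 other cap subunits, 5 activators, 1 inhibitor and 7 chaperones. Of the 49, 45 had enough counts for testing, and Psma8, Psmb8, Psmb9 and Psmb11 did not.

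The cells were myotubes of C2C12, a mouse myoblast line that fuses into multinucleated fibres in low-serum medium. After 6 days of differentiation they received an extract called Jakyak-gamcho-tang (JGT), made from peony root and licorice root in hot water, for 24 h. There were 5 groups of 3 RNA-seq libraries: non-treated myotubes, a vehicle control with 0.1% DMSO, and JGT at 20, 100 and 500 µg/mL. All 15 libraries share the cell line and the differentiation, and none is labelled with dexamethasone, the glucocorticoid named in the title of the study. The 500 µg/mL dose was the highest that the submitters calculated as tolerable from a viability curve, and it leaves fewer viable cells than no treatment. JGT was dissolved in a stock that holds DMSO, so the DMSO brought in by the extract rises with the dose. Sample codes of the 6 control libraries and the 9 JGT libraries belong to 2 different series. JGT against control therefore cannot be told apart from one code series against the other, while one dose against another can. No label says whether the 3 libraries of a group are separate cultures, and the p-values measure only the spread between these libraries.

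The proteasome is the protease that degrades most ubiquitin-tagged proteins of the cell. Its barrel-shaped core has outer alpha rings, which gate the entrance, and inner beta rings, which carry the cutting sites, and a cap on the end of the barrel binds, unfolds and feeds in the substrates. Interferon exchanges the cutting subunits for immunoproteasome versions, and in skeletal muscle the ubiquitin-proteasome route is a main path of protein loss in atrophy. Transcription of subunit genes can be raised by the factors Nfe2l1 and Nfe2l2, which bind antioxidant response elements.

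Library totals ran from 26012844 to 36854199 counts, and proteasome genes took between 0.488% and 0.560% of them. Values per gene are given as CPM, counts relative to the library total after scaling by trimmed means, and fold changes are log2 values with the standard error of the fit. A gene was called higher or lower where its adjusted p in edgeR's quasi-likelihood test over 14461 genes was below 0.05. Replicate 2 of JGT 500 stood apart from the other libraries of its group: the chi-square per gene was 20.1 against replicate 1 and 33.1 against replicate 3, and 7.97 between replicates 1 and 3. The myotube markers Ckm, Acta1, Mylpf, Tnnt3, Myh4, Myog and Atp2a1 summed to between 9488 and 11191 CPM in every library. Acta1 and Mylpf made up most of that sum, at means of 4422 and 2772 CPM in JGT 500 libraries. Between JGT 500 and vehicle 3 of those 7 markers were higher and 3 lower. Mylpf, Tnnt3 and Myog had log2 fold changes of 0.25, 0.13 and 0.26, and Myh4, Ckm and Atp2a1 of -0.80, -0.48 and -0.37. Acta1 was not called. Of all genes tested, 16.5% were called higher and 16.8% lower. Myoblast and cycling-cell markers summed to between 589.6 and 619 CPM in JGT 500 libraries and between 742 and 769.7 CPM in vehicle libraries. Of these, 4 of 6 were lower, namely Mki67, Ccnd1, Top2a and Pax7, and none was higher. Myf5 and Cdh15 were not called, and Cdh15 made up most of the sum, at means of 472 CPM in JGT 500 and 487 CPM in vehicle libraries. Of 5 adipocyte markers Lpl, Pparg and Cebpa were higher in JGT 500 libraries, with a sum of 104 to 115 CPM there and 48.3 to 49.9 CPM in vehicle libraries, while Adipoq and Plin1 held at most 2 counts over all 15 libraries. The part of these shifts in the proteasome values was not tested. In bulk RNA, fewer cells of a type and less RNA per cell cannot be told apart.

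Per exonic length, in TPM, a length-scaled share of transcripts, averaged over the 15 libraries, the constitutive core and the cap stood at similar levels. The 14 core genes had a median of 154 TPM, from Psma1 at 61.4 to Psmb5 at 298 TPM. The 17 cap genes had a median of 147 TPM, from Psmc2 at 77.7 TPM to Psmc3, an ATPase of the cap base, at 469.7 TPM. Assembly chaperones lay lower, with a median of 28.0 TPM and a range of 10.9 (Psmd9) to 66.1 TPM (Psmd10). Activators ran from 7.42 TPM (Psme2b) to 141 TPM (Psme3), and the inhibitor Psmf1 stood at 16.8 TPM. The highest and second highest genes, Psmc3 and Psmc5, had ranges over the libraries of 438 to 529 and 304 to 378 TPM, which do not overlap. Psmb5, next in the order at 261 to 364 TPM, overlapped both Psmc5 and Psmc1, which lay at 281 to 312 TPM. These lengths pool the exons of every annotated transcript, so genes with long rare exons read low on this scale.

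**Figure D1:**
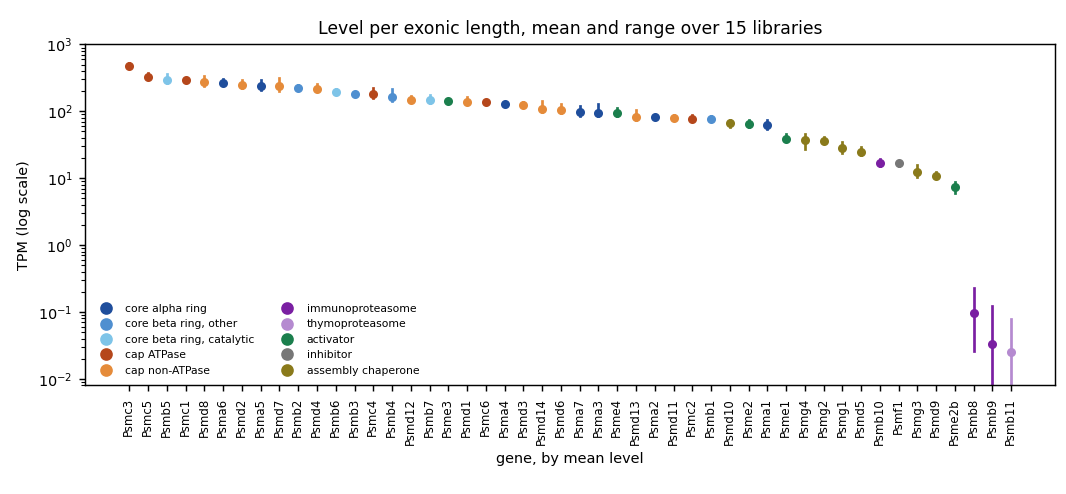
Level of each proteasome gene in TPM (log axis), ordered by the mean of 15 libraries; points are means, bars the lowest to highest library, colours the roles, and bars that reach 0 end at the lower edge of the plot. Core and cap genes lie between 61.4 and 469.7 TPM, while Psmb8, Psmb9 and Psmb11 lie below 0.1 TPM on average; Psma8, at 0 in every library, is not drawn.

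In JGT 500 myotubes 18 of the 45 tested proteasome genes were higher than in vehicle myotubes, against 16.5% of all genes called higher, and 1, Psme3, was lower, against 16.8% called lower. The 18 are 40.0% of those tested. The changes were small: the largest called rise was 1.25-fold (Psma5), the median log2 fold change over the 45 genes was 0.13, against 0.01 over all genes tested, and 39 of 45 were positive. The 3 JGT 500 libraries all lay above the 3 vehicle libraries for 19 of the 45 genes, where 19.8% of all genes did so. Alpha ring genes were called in 4 of 7 cases, standard beta ring genes in 1 of 7, cap ATPases in 2 of 6 and other cap subunits in 7 of 11. Activators gave 2 higher and 1 lower of 5, and chaperones 2 higher of 7. Summed over all members, proteasome genes reached 5316, 5169 and 5501 CPM in JGT 500 libraries, against 4901, 4977 and 4906 CPM in vehicle libraries. Those sums do not overlap. The non-treated libraries summed to 5091, 5202 and 5005 CPM, and their highest lay above the lowest JGT 500 library. With only the 6 libraries of these 2 groups in the fit, 11 of the genes were called, all of them among the 18. The count changed with single libraries: 10 were called without JGT 500 replicate 3 and 11 without vehicle replicate 3. Without JGT 500 replicate 2 it was 29 (24 higher, 5 lower). Calls over all genes were not counted in these fits or in the one with 6 libraries. A change particular to proteasome genes therefore cannot be read from them.

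**Figure D2:**
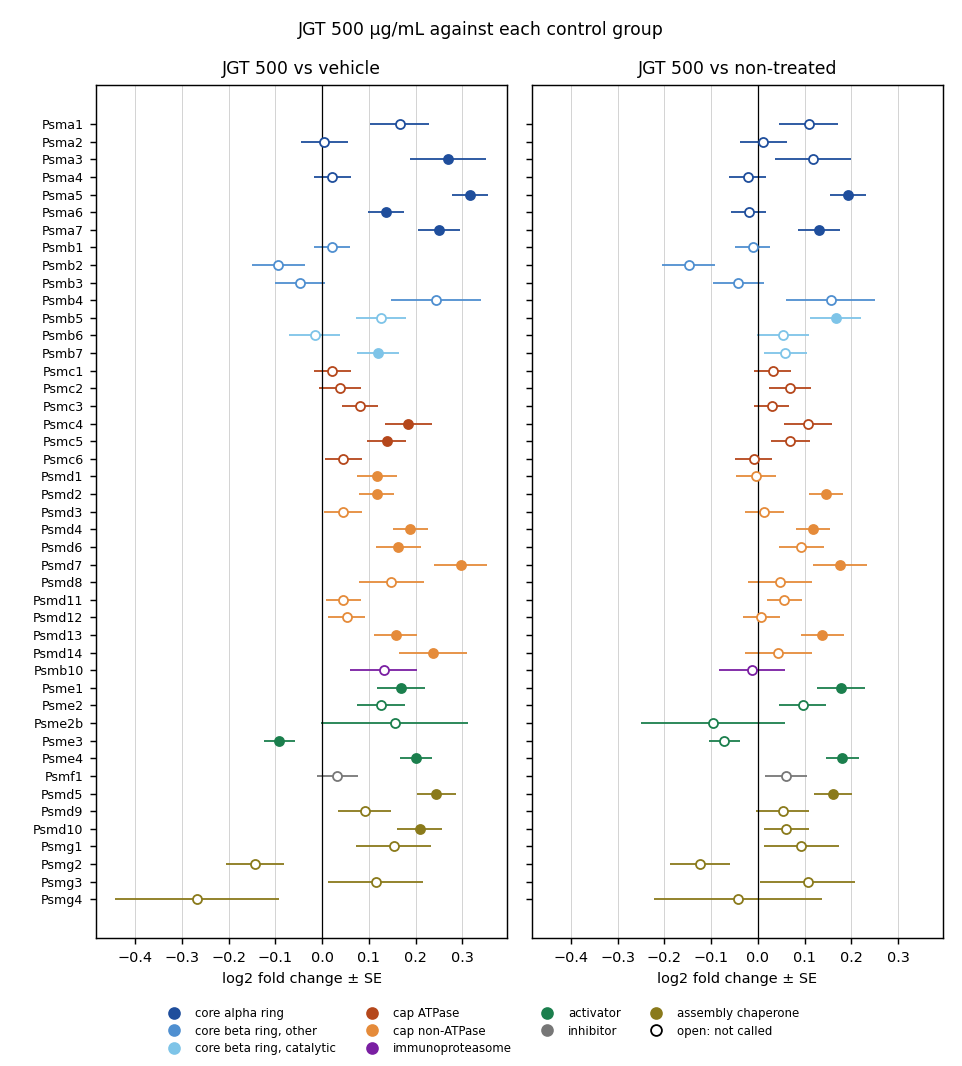
Log2 fold change (± SE of the edgeR fit) of the 45 tested proteasome genes, JGT 500 against vehicle on the left and against non-treated myotubes on the right; filled points were called, open points were not. On the left 18 filled points lie right of 0 and 1 (Psme3) left of it; on the right 10 lie right of 0.

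Of the alpha ring, Psma5 had the largest called rise of the whole family. This structural ring subunit (GRCm38 chr3:108256926-108279974, plus strand) had 112, 106 and 112 CPM in JGT 500 libraries, against 88.4, 87.8 and 88.7 CPM in vehicle libraries. Every JGT 500 library lay above every vehicle library, and above every non-treated library, which held 97.95, 97.0 and 93.7 CPM. The log2 fold change over vehicle was 0.32 ± 0.04 (adjusted p = 2.47e-06). Psma7, another alpha subunit, had 98.9, 98.8 and 105 CPM in JGT 500 libraries, against 85.3, 85.1 and 83.9 CPM in vehicle libraries. The groups did not overlap, and the log2 fold change was 0.25 ± 0.05 (adjusted p = 2.53e-04). Psma6 had 108, 105 and 107 CPM in JGT 500 libraries and 96.6, 101 and 93.6 CPM in vehicle libraries, again without overlap. Its log2 fold change was 0.14 ± 0.04 (adjusted p = 0.00891), but the non-treated libraries, at 108, 107 and 108 CPM, were as high as those of JGT 500. Psma3 averaged 127 ± 17.4 CPM in JGT 500 myotubes and 106 ± 1.90 CPM in vehicle myotubes (SD, n = 3 each), and it was called with a log2 fold change of 0.27 ± 0.08. The Psma3 call was lost in 7 of 13 alternative settings, with an adjusted p of up to 0.300. Psma1 had a like difference, 0.17 ± 0.06, that missed the threshold at an adjusted p of 0.0501. Psma2 and Psma4 were not called: their log2 fold changes were 0.00 (95% interval -0.10 to 0.11) and 0.02 (-0.06 to 0.10). Their upper bounds lie below the lower bound of Psma5, which is 0.24. Psma8, an alpha subunit of the testis, had no count in any library. The exact 95% Poisson interval for the summed count of a group of 3 libraries reaches up to 3.69.

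Of the 7 standard beta ring genes 1 was called higher, where 16.5% of all genes were. Among the cutting subunits, Psmb7, which carries the trypsin-like site, had 153, 156 and 173 CPM in JGT 500 libraries, against 144, 148 and 151 CPM in vehicle libraries. The groups are separate by a narrow margin, and the log2 fold change of 0.12 ± 0.05 was called at an adjusted p of 0.0486. The call was lost in 8 of 13 alternative settings, where the log2 fold change went down to 0.06 and the adjusted p up to 0.354. Psmb5, the chymotrypsin-like subunit, had 85.0, 89.9 and 93.5 CPM in JGT 500 libraries and 81.9, 81.4 and 82.5 CPM in vehicle libraries. These groups did not overlap either, yet the log2 fold change of 0.13 ± 0.05 missed the threshold (adjusted p = 0.0775). Psmb6, the caspase-like subunit, had 101, 126 and 117 CPM in JGT 500 libraries, against 112, 119 and 117 CPM in vehicle libraries. The vehicle values lie inside the range of the JGT 500 values, and the log2 fold change was -0.02 ± 0.06 (95% interval -0.13 to 0.10). Of the structural beta subunits, Psmb1, Psmb2 and Psmb3 had log2 fold changes of 0.02, -0.09 and -0.05 and were not called. Psmb4 averaged 108 ± 14.1 CPM in JGT 500 myotubes and 91.5 ± 3.56 CPM in vehicle myotubes, a log2 difference of 0.24 ± 0.10 that was not called (adjusted p = 0.0690).

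In the base of the cap, a ring of ATPases unfolds the substrate. Psmc4 had 133, 120.2 and 136 CPM in JGT 500 libraries, against 114, 116 and 112 CPM in vehicle libraries, and Psmc5 had 146, 143 and 151 CPM in JGT 500 libraries and 134, 133 and 132 CPM in vehicle libraries. Neither gene overlapped between the groups, and both were called, with log2 fold changes of 0.18 ± 0.05 and 0.14 ± 0.04 and adjusted p-values of 0.00844 and 0.0160. Psmc3 had 401, 369 and 394 CPM in JGT 500 libraries, against 374, 369.5 and 357 CPM in vehicle libraries. Replicate 2 of JGT 500 lay inside the vehicle range, and the log2 fold change of 0.08 ± 0.04 was not called (adjusted p = 0.1102). The other ATPases, Psmc1, Psmc2 and Psmc6, had log2 fold changes between 0.02 and 0.05.

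Some of the non-ATPase cap subunits bind ubiquitin chains or strip them off. Of all 11 of these subunits, 7 were called higher, where 16.5% of all genes were. Psmd7, the partner of the deubiquitinase subunit (GRCm38 chr8:107580381-107588464, minus strand), had 189, 168 and 206 CPM in JGT 500 libraries, against 154, 161 and 143 CPM in vehicle libraries. The groups did not overlap, and the log2 fold change was 0.30 ± 0.06 (adjusted p = 6.05e-04). Psmd4, a ubiquitin receptor, had 209, 189 and 205 CPM in JGT 500 libraries and 177, 179 and 173 CPM in vehicle libraries, also without overlap, and rose by 0.19 ± 0.04 on the log2 scale (adjusted p = 5.28e-04). Psmd6, a lid subunit, had 97.3, 89.7 and 102 CPM in JGT 500 libraries, against 81.7, 87.1 and 89.7 CPM in vehicle libraries. Its lowest JGT 500 library and its highest vehicle library round to the same value, and it was called with a log2 fold change of 0.16 ± 0.05 (adjusted p = 0.0130). The deubiquitinase subunit Psmd14 averaged 104 ± 13.7 CPM in JGT 500 myotubes and 88.2 ± 2.79 CPM in vehicle myotubes, a called log2 difference of 0.24 ± 0.07. The lid subunit Psmd13 and the base scaffold subunits Psmd1 and Psmd2 were called with log2 fold changes of 0.16, 0.12 and 0.12. For Psmd1 and Psmd14 the JGT 500 and vehicle libraries overlapped. The Psmd14 call was lost in 6 of 13 alternative settings. The Psmd1 call was lost in 5, and its direction changed in 1 more. Calls of Psmd2 and Psmd6 were lost in 4 settings each and that of Psmd13 in 1. Psmd3, Psmd11 and Psmd12 had log2 fold changes of 0.04, 0.05 and 0.05, and Psmd8 had 0.15 ± 0.07, none of them called. Psmd8 averaged 272 ± 35.5 CPM in JGT 500 myotubes and 246 ± 7.09 CPM in vehicle myotubes.

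**Figure D3:**
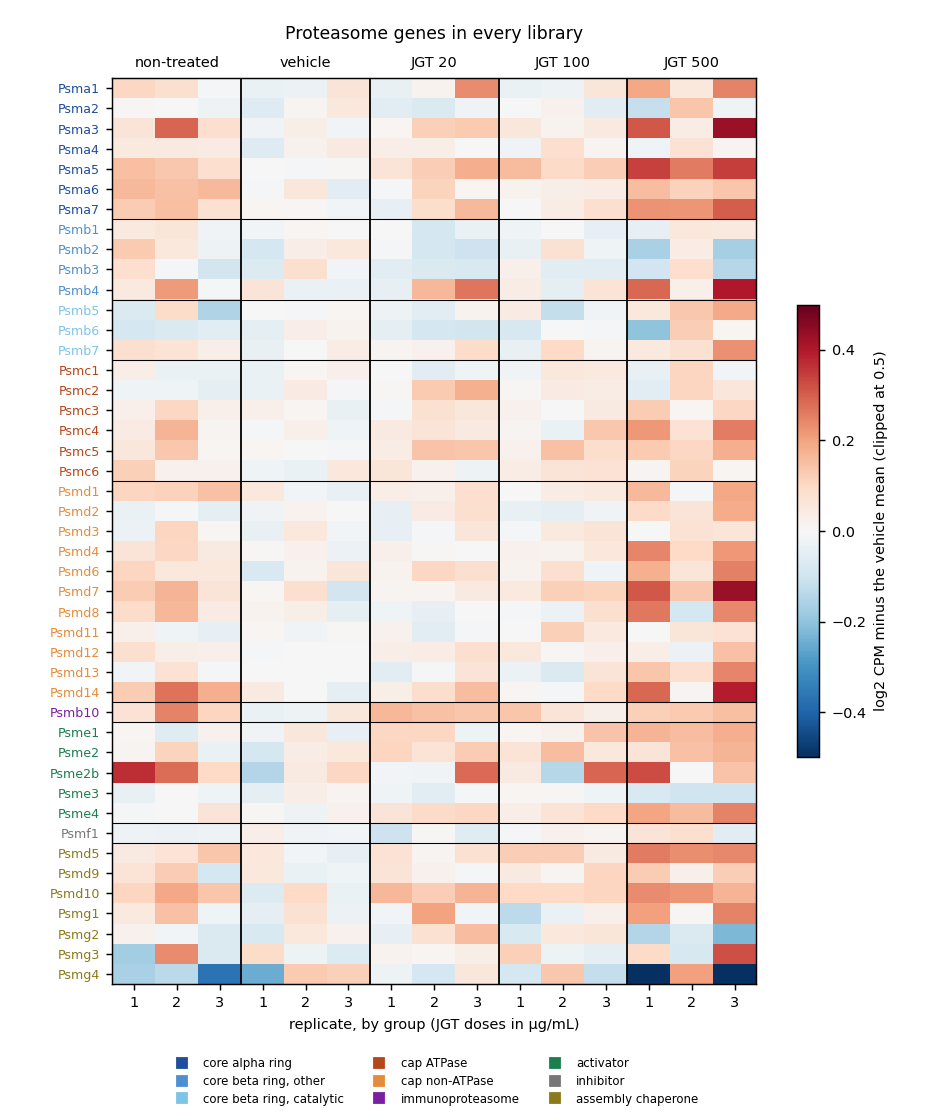
Log2 CPM of the 45 tested genes in each of the 15 libraries, minus the gene's vehicle mean, ordered by role (label colours) and by group; red is above and blue below the vehicle mean, clipped at 0.5. The red in JGT 500 is stronger in replicates 1 and 3 than in replicate 2, and Psmg4 and Psmb2 are blue in replicates 1 and 3.

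Immunoproteasome transcripts were near 0 for Psmb8 and Psmb9 and low but steady for Psmb10. Psmb8, which replaces Psmb5 in cells exposed to interferon (GRCm38 chr17:34197721-34201454, plus strand), gave 46 counts over all 15 libraries. Its counts summed to 5 in non-treated, 13 in vehicle, 7 in JGT 20, 12 in JGT 100 and 9 in JGT 500 libraries. The exact 95% Poisson intervals for JGT 500 (4.12 to 17.1) and for vehicle (6.92 to 22.2) overlap, and cover counting error only. Psmb9, which replaces Psmb6, gave 17 counts, with 5 libraries at 0, and the thymus subunit Psmb11 gave 17, with 7 libraries at 0. Psmb11 summed to 8 counts in JGT 500 libraries and 1 count in vehicle libraries, with intervals of 3.45 to 15.8 and 0.0253 to 5.57 that overlap. By library these were 2, 3 and 3 counts in JGT 500 libraries, against 1, 0 and 0 in vehicle libraries, so the libraries did not overlap. These genes had too few counts to enter the fit and were not tested. Psmb10, which replaces Psmb7, had 9.08, 9.14 and 9.28 CPM in JGT 500 libraries, against 8.18, 8.22 and 8.70 CPM in vehicle libraries. All JGT 500 libraries were above all vehicle libraries, but the log2 difference of 0.13 ± 0.07 was not called (adjusted p = 0.165), and the non-treated libraries held 8.80, 9.93 and 9.01 CPM. Per length, Psmb10 stood at 11.5% ± 0.627 of Psmb7 in JGT 500 myotubes and 11.4% ± 0.187 in vehicle myotubes (SD, n = 3 each). Psmb8 stood at 0.0287% ± 0.00765 of Psmb5 in JGT 500 myotubes and 0.0485% ± 0.0262 in vehicle myotubes. Leukocytes use this form of the proteasome, and the 6 leukocyte markers together summed to at most 2.55 CPM in any library. Over all 15 libraries Cd68 and Itgam had 458 and 210 counts, Cd74 and Lyz2 56 and 47, and Ptprc and Cd3e 6 and 3.

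Of the 5 activators, which open the core in place of the cap, 2 were higher and 1 was lower. Of all genes, 16.5% were called higher and 16.8% lower. Psme4, the large nuclear activator (GRCm38 chr11:30771726-30880361, plus strand), had 262, 255 and 272 CPM in JGT 500 libraries, against 229.8, 225 and 232 CPM in vehicle libraries. The groups were well apart, and the log2 fold change was 0.20 ± 0.03 (adjusted p = 1.41e-04). Psme1 and Psme2 form the interferon-inducible activator ring. Psme1 had 28.6, 28.3 and 28.8 CPM in JGT 500 libraries and 25.2, 26.5 and 24.7 CPM in vehicle libraries, without overlap, and was called at a log2 fold change of 0.17 ± 0.05 (adjusted p = 0.0171). Psme2 had 34.6, 36.7 and 37.3 CPM in JGT 500 libraries, against 31.2, 34.0 and 34.4 CPM in vehicle libraries. Its groups did not overlap, but its log2 fold change of 0.13 ± 0.05 missed the threshold (adjusted p = 0.0623). Psme2b, a copy of Psme2 that lies elsewhere in the genome, had 2.20, 1.76 and 1.94 CPM in JGT 500 libraries and 1.59, 1.81 and 1.89 CPM in vehicle libraries, which overlap. Counts of Psme2 and Psme2b were not whole in 12 libraries, as happens where reads fit more than 1 gene, and the values of this pair are uncertain. Psme3, the nuclear activator of the same family, had 124, 122 and 122 CPM in JGT 500 libraries, against 126, 134 and 132 CPM in vehicle libraries. It was the only member called lower, with all JGT 500 libraries below all vehicle libraries and a log2 fold change of -0.09 ± 0.03 (adjusted p = 0.0365). That call was lost in 8 of 13 alternative settings, with an adjusted p of up to 0.145. The inhibitor Psmf1 had 35.1, 35.5 and 32.3 CPM in JGT 500 libraries and 34.3, 33.1 and 33.2 CPM in vehicle libraries, which overlap, and was not called.

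Of the 7 assembly chaperones 2 were higher, where 16.5% of all genes were called higher. Both are chaperones of the cap base, a group too small to set against the others. Psmd5, which holds ATPases during assembly of the cap base (GRCm38 chr2:34849734-34874968, minus strand), had 60.7, 59.5 and 59.9 CPM in JGT 500 libraries, against 52.6, 50.1 and 49.3 CPM in vehicle libraries. The groups were far apart, and the log2 fold change was 0.24 ± 0.04 (adjusted p = 1.14e-04). Psmd10, the base chaperone also known as gankyrin, had 32.3, 32.0 and 30.9 CPM in JGT 500 libraries and 26.2, 29.4 and 26.9 CPM in vehicle libraries, again apart, with a log2 fold change of 0.21 ± 0.05 (adjusted p = 0.00213). The remaining base chaperone Psmd9 had 25.8, 24.0 and 25.7 CPM in JGT 500 libraries, against 24.5, 23.1 and 23.3 CPM in vehicle libraries, and was not called. Psmd9 shares 1849 exonic bases with a gene on the other strand, and no source used here gives the strand option of the counting. The chaperones of the core alpha ring, Psmg1 to Psmg4, gave no call. Psmg1 had 12.9, 11.2 and 13.3 CPM in JGT 500 libraries and 10.8, 11.8 and 10.95 CPM in vehicle libraries, and Psmg3 had 11.3, 10.0 and 13.2 CPM in JGT 500 libraries and 11.3, 10.4 and 10.1 CPM in vehicle libraries. Both overlapped between the groups. Psmg2, the partner of Psmg1, had 17.7, 18.6 and 16.8 CPM in JGT 500 libraries, against 18.6, 20.3 and 19.9 CPM in vehicle libraries, a log2 difference of -0.14 ± 0.06 (adjusted p = 0.0863). Psmg4, the partner of Psmg3, had 4.54, 7.91 and 4.59 CPM in JGT 500 libraries, against 5.78, 7.52 and 7.45 CPM in vehicle libraries. Replicates 1 and 3 of JGT 500 were below every vehicle library and replicate 2 above all of them, and the log2 difference was -0.27 ± 0.18 (adjusted p = 0.265).

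**Figure D4:**
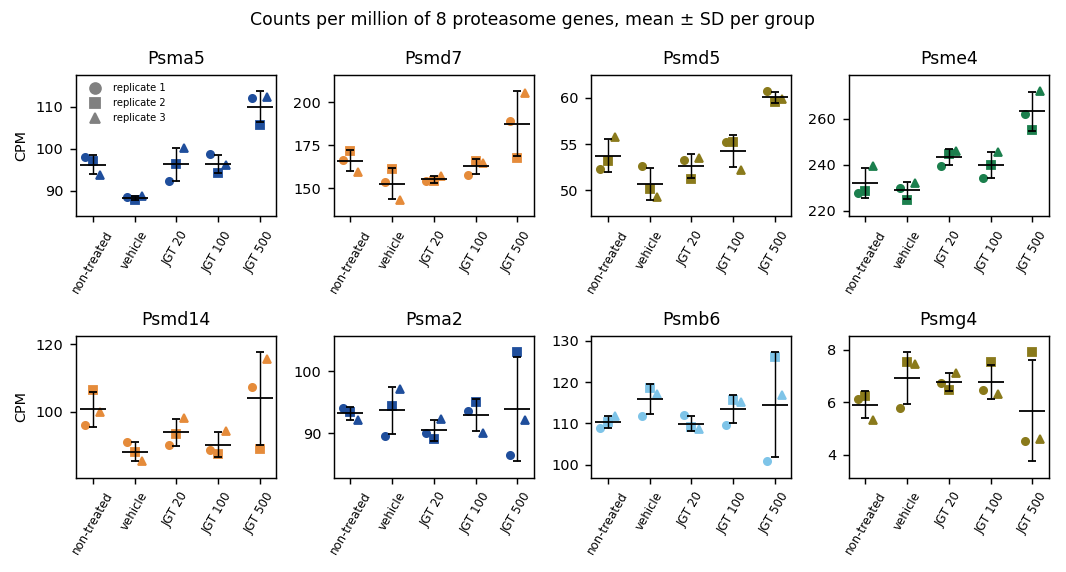
CPM of 8 proteasome genes in each library (circle, square and triangle for replicates 1, 2 and 3), with mean ± SD of 3 libraries per group; each panel has its own axis, which does not start at 0. Psma5, Psmd5 and Psme4 are higher in every JGT 500 library than in every other library, Psmd14 shows replicate 2 of JGT 500 at the vehicle level, and Psma2, Psmb6 and Psmg4 show it as the highest of the 3.

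Replicate 2 of JGT 500 stood apart from replicates 1 and 3 in many of these genes. Among the 18 genes called higher, it was the lowest of the 3 libraries in 16 (88.9%), against 63.0% of all genes called higher and 38.7% of all genes tested. Psmd14, picked after its values were seen, had 107, 89.0 and 116 CPM in the 3 JGT 500 libraries, against 91.02, 88.1 and 85.4 CPM in the vehicle libraries. The median over the 45 genes of the log2 ratio to the vehicle mean was 0.13 in replicate 1, 0.08 in replicate 2 and 0.17 in replicate 3. The mitochondrial share of counts was 4.27%, 4.94% and 3.47% in these libraries, against 4.74% to 4.94% in vehicle libraries. The part of that share in the proteasome values was not tested.

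At the lower doses no proteasome gene was called. JGT 20 against vehicle gave 0 calls, where 0.325% of all genes were called in either direction, 6 proteasome genes had an unadjusted p under 0.05, and DESeq2 called 0. JGT 100 against vehicle gave 0 calls, where 4.31% of all genes were called, 3 proteasome genes had an unadjusted p under 0.05, and DESeq2 again called 0. The median log2 fold change over the 45 genes was 0.04 at 20, 0.03 at 100 and 0.13 at 500 µg/mL. Psma5 had 92.4, 96.2 and 100.2 CPM in JGT 20 libraries, 98.7, 94.3 and 96.1 CPM in JGT 100 libraries and 112, 106 and 112 CPM in JGT 500 libraries. Its libraries at every dose lay above those of vehicle, with log2 fold changes of 0.12, 0.13 and 0.32, and the adjusted p was 0.222 at the lowest dose and 0.0775 at the middle one. The non-treated libraries of Psma5, at 97.95, 97.0 and 93.7 CPM, lay within the range of the lower doses. All JGT 20 libraries lay above all vehicle libraries for 8 of the 45 genes, where 1471 of 14461 genes did so. For JGT 100 this held for 5 of the 45 genes and 1878 of all genes. Psme4 had 239, 245 and 246 CPM in JGT 20 libraries and 234, 239.8 and 245 CPM in JGT 100 libraries, all above the vehicle libraries.

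Between doses, where all libraries are from one code series, calls came with the step to 500 µg/mL. JGT 100 against JGT 20 gave 0 calls in edgeR (0.429% of all genes called in either direction), 0 proteasome genes with an unadjusted p under 0.05 and 0 calls in DESeq2. JGT 500 against JGT 100 gave 12 genes higher and 0 lower, where 9.05% of all genes were higher. They were Psma5, Psma6, Psma7, Psmb5, Psmc4, Psmd2, Psmd4, Psmd5, Psmd6, Psmd7, Psmd13 and Psme4, with log2 fold changes from 0.11 (Psma6) to 0.21 (Psma7). JGT 500 against JGT 20 gave 7 genes higher, Psma5, Psma7, Psmd4, Psmd5, Psmd7, Psmd13 and Psme4, where 11.1% of all genes were higher. Psmd7 had the largest of these rises, 0.27 on the log2 scale. Psmg2 was lower in that comparison, by a log2 fold change of -0.21 (adjusted p = 0.0202), where 12.2% of all genes were lower. All 3 comparisons with JGT 500 use its 3 libraries, and their counts are not independent of each other. The count of calls over JGT 100 was 23 without JGT 500 replicate 2, 5 without JGT 500 replicate 3, 6 without JGT 100 replicate 1 and 7 without JGT 100 replicate 2. Over JGT 20 it was 17 without JGT 500 replicate 2, and 5 without JGT 500 replicate 3 or JGT 20 replicate 1. With only the libraries of the 2 groups in the fit, 2 genes were called over JGT 100 and 4 over JGT 20. Calls over all genes were not counted in these reduced fits. Group means increased at every dose step for 12 of the 45 genes, against 23.9% of all genes tested.

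**Figure D5:**
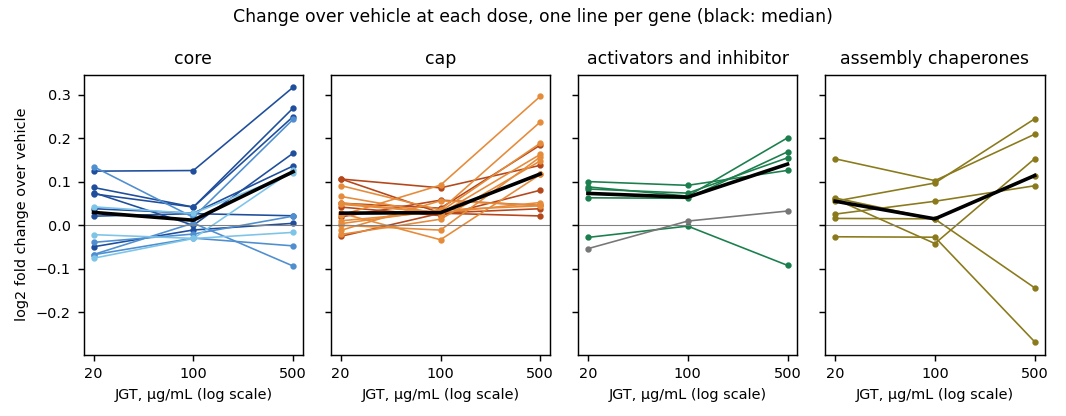
Log2 fold change over vehicle at 20, 100 and 500 µg/mL JGT (equally spaced, a log scale), a line for each tested core gene, cap gene, activator or inhibitor, and chaperone, coloured by role, with the median in black; Psmb10 is not drawn. Lines lie between -0.08 and 0.15 at the lower doses; at 500 µg/mL they reach 0.32, and those of Psme3, Psmb2, Psmb3, Psmb6, Psmg2 and Psmg4 lie below 0.

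The calls depended on which control was used. Vehicle myotubes had lower values than non-treated myotubes for 32 of the 45 genes and a median log2 fold change of -0.05. Over all genes tested, vehicle was above non-treated for 7338 of 14461, with a median of 0.0025. Of the 18 genes called higher in JGT 500 over vehicle, 16 had vehicle below non-treated. The vehicle libraries enter both comparisons, so the 2 are not independent. Only Psma6 was called, lower in vehicle than in non-treated myotubes, with a log2 fold change of -0.16 ± 0.04 (adjusted p = 0.0464), where 0.754% of all genes were called lower. No proteasome gene was called in this comparison with library totals in place of TMM scaling, with a replicate block, or without any 1 of the 6 libraries. With only these 6 in the fit, 5 were called lower. Calls over all genes were not counted in those fits. JGT 500 against non-treated myotubes gave 10 genes higher and 0 lower, where 16.3% of all genes were higher, with a median log2 fold change of 0.06. They were Psma5, Psma7, Psmb5, Psmd2, Psmd4, Psmd5, Psmd7, Psmd13, Psme1 and Psme4. Of the 18 genes called higher over vehicle, 9 are among them. This comparison uses the same JGT 500 libraries as the one with vehicle, and the 2 sets of calls are not independent. Psmb5 had a log2 fold change over non-treated myotubes of 0.17 ± 0.05 (adjusted p = 0.0227). Psma5 and Psme4 had log2 fold changes over non-treated myotubes of 0.19 ± 0.04 and 0.18 ± 0.03. Psmd14 and Psma3 had log2 fold changes of 0.04 ± 0.07 and 0.12 ± 0.08 over non-treated myotubes and were not called.

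Genes that regulate or assist the proteasome were looked up from a list of 25, of which 24 were measured and tested. In JGT 500 over vehicle 11 were higher and 2 lower, where 16.5% of all genes were called higher and 16.8% lower, with a median log2 fold change of 0.12. Over non-treated myotubes, with the same JGT 500 libraries, 8 were higher and 1 lower, where 16.3% of all genes were higher and 15.5% lower, with a median of 0.09. Nfe2l2, the antioxidant response factor, averaged 193 ± 13.5 CPM in JGT 500 myotubes and 164 ± 3.95 CPM in vehicle myotubes (SD, n = 3 each), a log2 fold change of 0.23 ± 0.04 (adjusted p = 3.13e-04). Nfe2l1, the factor that restores subunit transcription when the proteasome is inhibited, averaged 899 ± 54.1 CPM in JGT 500 myotubes and 805 ± 28.9 CPM in vehicle myotubes, with a log2 fold change of 0.16 ± 0.04 (adjusted p = 0.00502). Over JGT 100 and JGT 20, Nfe2l1 had 0.07 and 0.09 and was not called (adjusted p of 0.242 and 0.121). Nfe2l2 had 0.14 and 0.21 there and was called in both. Of the 24 genes 7 were higher over JGT 100 and 6 over JGT 20, with 0 lower, where 9.05% and 11.1% of all genes were higher. Zfand5, a proteasome-binding protein that stimulates degradation in atrophying muscle, averaged 127 ± 4.28 CPM in JGT 500 myotubes and 105 ± 4.76 CPM in vehicle myotubes and rose by 0.26 ± 0.04. The unfoldase Vcp rose by 0.23 ± 0.05 and the core assembly factor Pomp by 0.18 ± 0.04 on the log2 scale, and the cap-bound thioredoxin Txnl1 changed by -0.19 ± 0.05. The small cap subunit Sem1, listed under its older symbol Shfm1, rose by 0.42 ± 0.10. Over non-treated myotubes Shfm1, Pomp and Txnl1 had log2 fold changes of 0.21, 0.07 and -0.10 (adjusted p of 0.134, 0.241 and 0.128), none of them called.

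Of the genes for ubiquitin and its activating enzymes, Rps27a, a fusion of ubiquitin with a ribosomal protein, averaged 225 ± 13.2 CPM in JGT 500 myotubes and 246 ± 13.7 CPM in vehicle myotubes. It was called lower, with a log2 fold change of -0.13 ± 0.05 (adjusted p = 0.0349), where 16.8% of all genes were called lower. Over non-treated, JGT 100 and JGT 20 libraries, Rps27a in JGT 500 had log2 fold changes of -0.12, -0.04 and -0.11. None of those was called (adjusted p of 0.0542, 0.533 and 0.0955). The polyubiquitin gene Ubb had a log2 fold change of -0.26 ± 0.14 and the activating enzyme Uba6 one of -0.07 ± 0.04, and neither was called. Of the antigen presentation genes, the peptide transporter subunit Tap2 averaged 11.3 ± 0.962 CPM in JGT 500 myotubes and 7.42 ± 0.565 CPM in vehicle myotubes and was called higher, with a log2 fold change of 0.60 ± 0.09 (adjusted p = 4.77e-05). The interferon-pathway factor Irf1 was also called higher, at 0.26 ± 0.05. B2m, the light chain of the class I complex, had -0.37 ± 0.18 and was not called.

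Promoter sequences from RefSeq (GRCm38.p6), each from 250 bases before to 50 bases after the RefSeq start of the gene, were found for 41 of the 49 members. The antioxidant response element core, TGACNNNGC on either strand, was present in 6 of the 41 (14.6%), against 3781 of 27025 genes with such a promoter (14%), so members held it about as often as other genes. The 6 were Psmb5, Psmb6, Psmc6, Psmd9, Psmd12 and Psme4. In JGT 500 over vehicle only Psme4 of these was called higher, where 40.0% of tested members and 16.5% of all genes were. Over JGT 100 and over non-treated myotubes both Psmb5 and Psme4 were called higher, where 9.05% and 16.3% of all genes were. The CCAAT box, CCAAT on either strand, was present in 14 of 41 (34.1%), against 41.1% of all genes. The motifs were counted separately, whether or not their matches overlapped. Windows of 100 bases, from 80 before to 20 after the start, follow for the 4 members with an element core near the start and for Psma5, the largest called rise, which has none; capitals mark the element core, which for Psme4 lies on the opposite strand.
Psma5 (chr3:108256846-108256945, plus strand): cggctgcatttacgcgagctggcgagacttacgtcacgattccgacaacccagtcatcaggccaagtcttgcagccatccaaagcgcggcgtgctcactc
Psmb5 (chr14:54617976-54618075, minus strand): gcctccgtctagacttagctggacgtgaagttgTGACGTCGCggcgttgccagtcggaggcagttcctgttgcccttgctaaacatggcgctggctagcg
Psmb6 (chr11:70525277-70525376, plus strand): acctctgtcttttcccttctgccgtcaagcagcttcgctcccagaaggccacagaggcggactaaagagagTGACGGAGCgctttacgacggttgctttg
Psmd9 (chr5:123228110-123228209, plus strand): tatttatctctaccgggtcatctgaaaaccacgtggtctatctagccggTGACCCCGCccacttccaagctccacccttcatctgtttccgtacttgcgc
Psme4 (chr11:30771695-30771794, plus strand): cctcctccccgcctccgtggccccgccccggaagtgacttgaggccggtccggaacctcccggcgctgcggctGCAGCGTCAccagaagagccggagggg
Read from the RefSeq start, the core begins at position -47 in Psmb5, -9 in Psmb6, -31 in Psmd9 and -7 in Psme4. The RefSeq start can differ from that of the GENCODE annotation, which gave the gene coordinates. There Psme4 begins at chr11:30771726 and Psmd9 at chr5:123169413, both before the match, which thus lies inside the gene. A match to these letters describes the sequence and says nothing of binding.

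Some values carry limits of counting. Counts were not whole in all 15 libraries for Psma3, Psma5, Psmb3, Psmb5, Psmb7, Psmd1, Psmd2, Psmd11 and Psmd13, and in 14 for Psma4, as happens where reads fit more than 1 gene. Among the genes named, exons of Psma4, Psma5, Psmb7, Psmb8, Psmb9, Psmc3, Psmd1, Psmd3, Psmd9, Psmd13 and Psme1 overlap a gene on the opposite strand, by 14 bases (Psme1) to 1849 bases (Psmd9). Exons on the same strand are shared by Psmd1 with Gm21972 over 301 bases, by Psmg3 with Gm26938 over 280 bases, by Psmb5 with Mir686 over 109 bases and by Psme2b with 9930111J21Rik1 over 41 bases.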

How the data were processed

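The libraries hold mRNA from total RNA, prepared with a strand-keeping kit and read in pairs of 100 bp, per the labels' protocols. The submitters' processing notes name RSEM 1.3.3, STAR 2.7.3a, Trim Galore 0.6.5 and FastQC 0.11.9, and the genome GRCm38 (mm10), without giving an annotation or strand option. The authors deposited 1 table with an expected count per gene symbol and library, an estimated count that was not normalized, as deposited. Of its values 9.34% were not whole (tolerance 0.005), and all were rounded. Columns were matched to samples by name, and groups come from the treatment labels.

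In R 4.3.3, edgeR 4.0.16 (filterByExpr, TMM factors 0.988 to 1.02, robust quasi-likelihood F test, two-sided) was fitted to all 15 libraries at once, with a mean per group and 10 residual degrees of freedom. Benjamini-Hochberg adjustment ran over the 14461 genes tested. CPM use TMM-scaled library sizes. TPM use the pooled exon length of each symbol in GENCODE M21. The scripts were tested on simulated data. Alternatives were DESeq2 1.42.0, DESeq2-style size factors in edgeR, library totals without TMM, no filter, a replicate block, only the groups compared, the other control, and leaving out each library. Within groups, the chi-square per gene between libraries was 1.97 to 33.1, above counting noise alone, so no pair was treated as a library deposited more than once; this does not show that the cultures were separate.

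The members and lists were chosen with earlier results of these data known. Values per library are given for the 3 members with the smallest p in the core, the cap ATPases and the other cap subunits, and for the immunoproteasome, its standard counterparts, activators, inhibitor and chaperones. Of each related list the 4 members with the smallest p are named where reported, and some listed genes are not reported here; Nfe2l1, Txnl1, Shfm1 and Ubb beyond them, and the other members, were picked with values seen. A search for genes that follow Psmb8 was not made, since it had too few counts to test.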

Additional observations from a re-analysis of the deposited data

How the results depend on the processing

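Of the log2 fold changes of 31 genes under 13 alternatives each, 335 kept direction and side of the threshold, 52 kept direction but lost the call, 8 gained a call and 8 changed sign. Psma5, Psma7, Psmd4, Psmd5, Psmd7 and Psme4 were called higher in all 13. Psmb6, with no call in any alternative, changed sign to 0.00045 with library totals only and 0.0547 over non-treated in place of vehicle, and ranged from -0.0916 to 0.0675 when single libraries were left out. Over non-treated, Psma6 had -0.0196, Psmb10 -0.0129, Psme2b -0.0961 and Psmd1 -0.0048. With only the 2 groups compared in the fit, the proteasome genes called were 11 for JGT 500 and 1 for JGT 100 over vehicle, 5 for vehicle over non-treated, 2 for JGT 500 over JGT 100 and 4 for JGT 500 over JGT 20. Over non-treated in place of vehicle they were 10 for JGT 500, all higher, and 1 for JGT 100, which was lower. Of all 14461 genes, 699 were lower in JGT 100 than in non-treated libraries. Vehicle over non-treated gave 0 with library totals only, 0 with the replicate block and 0 to 0 when single libraries were left out. Leaving out single libraries gave 10 to 29 calls for JGT 500 over vehicle, 5 to 23 for JGT 500 over JGT 100 and 5 to 17 for JGT 500 over JGT 20, each time highest without JGT 500 replicate 2; the count stayed at 0 for JGT 100 and JGT 20 over vehicle and JGT 100 over JGT 20. Over all groups, same-numbered libraries correlated at -0.32 to 0.12 in their deviations from group means, and 4 of 15 correlated best with their own number. Among the JGT libraries same-numbered pairs ran from -0.21 to 0.12 and other pairs from -0.17 to 0.27. Of these 9 libraries 2 correlated best with their own number. Between JGT 500 and JGT 100, same-numbered pairs had 0.07, 0.11 and 0.12, and other pairs -0.094 to -0.00016. These values do not settle whether JGT libraries of the same number belong together. With the replicate block, JGT 500 over vehicle gave 20 calls, JGT 500 over JGT 100 gave 9 and JGT 500 over JGT 20 gave 8. DESeq2 gave 19 calls for JGT 500 over vehicle, 18 of them the same genes. Apart from the change of control, calls over all genes were not counted under these alternatives. The cause of these differences was not tested. Depth limits Psmb8, Psmb9 and Psmb11, with 17 to 46 counts over all libraries.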
